A study of Mus musculus with 3 samples.

Results

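The genes described here are the zinc finger protein (Zfp) genes of a myeloid population sorted from mouse bone marrow. They were taken by name, as every listed gene called Zfp and a number, without Zfp36, Zfp36l1 and Zfp36l2, which encode RNA-binding proteins of another finger type. The rule gave 263 of 11419 listed genes. It used no measured value. Of the 263 genes, 261 are protein-coding, 1 is the antisense RNA Zfp335os and 1 is the pseudogene Zfp862-ps.

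The cells came from tibiae and femurs of C57BL/6 mice, an inbred strain, with no treatment and no genetic change named in the labels. The single group carried CD11b, F4/80 and CD169 at the surface and lacked CX3CR1 by the sorting gate, and its messenger RNA was sequenced in 3 libraries. No second population was measured, so each gene can be set only against a fixed level. Separate mice for the libraries are not stated in the labels, so p-values here reflect library-to-library spread, possibly technical.

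The unit is CPM, the reads of a gene scaled to a common library total (counts per 1000000 reads). Recovered whole reads totalled 5150020, 40149274 and 37604930 for replicates 1, 2 and 3. With these totals a gene without reads could lie as high as 0.583, 0.0747 and 0.0798 CPM (3 reads, counting error only). Defining markers did not all follow the label of a macrophage. Of 8 macrophage markers 5 were above 10 CPM in the limma test described below and 3 below, with Siglec1, the gene of CD169, at 0.388, 3.66 and 4.57 CPM. Cx3cr1, which the gate leaves out, was at 0, 0.423 and 0 CPM. All 7 neutrophil markers were above 10 CPM and summed to between 161866 and 197712 CPM in a library. The 3 basophil markers summed to 899 CPM in replicate 1 against 119 and 129 CPM in replicates 2 and 3, and the part of other cells in the values below was not tested. In bulk RNA, fewer cells of a type and less RNA per cell cannot be told apart.

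A classical zinc finger is a short fold in which a pair of cysteines and a pair of histidines hold a zinc ion, and arrays of such fingers read DNA sequence. Many Zfp proteins also carry a KRAB domain (Krüppel-associated box) near the start of the protein. It recruits the corepressor Trim28, which brings in the histone methyltransferase Setdb1 and heterochromatin proteins, and much of this repression falls on retroelements and imprinted genes. Zfp proteins without a KRAB domain are a mixed set of transcription factors, RNA-binding proteins and ubiquitin ligases.

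Levels differed between genes with and without a KRAB match, so the coding sequence of the box is shown for 4 genes. The sequences were read from GENCODE M21 transcripts of GRCm38. Capitals mark codons whose residue matched the 12 scored A box positions, and each stretch of 54 bases lies in 1 exon. Zfp445 (chr9:122856766-122856819, minus strand) had the highest mean CPM among KRAB genes, Zfp568 (chr7:30015069-30015122, plus strand) was above 10 CPM, Zfp619 (chr7:39533799-39533852, plus strand) had no read in 1 library, and Zfp287 (chr11:62725315-62725368, minus strand) had none in any library.
Zfp445: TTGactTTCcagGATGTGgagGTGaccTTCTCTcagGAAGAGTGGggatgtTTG
Zfp568: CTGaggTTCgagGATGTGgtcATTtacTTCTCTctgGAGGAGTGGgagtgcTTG
Zfp619: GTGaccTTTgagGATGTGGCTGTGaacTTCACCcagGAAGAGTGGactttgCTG
Zfp287: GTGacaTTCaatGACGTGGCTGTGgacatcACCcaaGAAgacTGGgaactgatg
Zfp619 matched at all 12 positions, Zfp445 and Zfp568 at 11 and Zfp287 at 9. The boxes of Zfp445 and Zfp619 were identical at 39 of 54 bases, and those of Zfp287 and Zfp568 at 31.

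To show what a finger is, 1 is printed from each of 3 genes. The finger of Zfp710 (chr7:80081971-80082033, plus strand), the gene of highest mean CPM and without a KRAB match, is set beside those of Zfp445 (chr9:122853399-122853461, minus strand) and Zfp619 (chr7:39535205-39535267, plus strand). Capitals mark the 4 codons of the zinc-holding cysteines and histidines.
Zfp710: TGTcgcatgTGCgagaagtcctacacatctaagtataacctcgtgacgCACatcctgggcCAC
Zfp445: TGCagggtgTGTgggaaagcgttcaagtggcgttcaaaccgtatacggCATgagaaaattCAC
Zfp619: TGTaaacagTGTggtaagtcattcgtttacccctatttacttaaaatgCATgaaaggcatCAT

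Zfp genes were mostly low. Their median level was 6.55 CPM, against 19.7 CPM over all listed genes, and the library medians were 6.02, 6.03 and 7.26 CPM. Only 4 of the 263 genes (1.52%) reached a mean of 100 CPM, against 14.8% of all listed genes. A further 15 lay between 50 and 100 CPM, 83 between 10 and 50, 127 between 1 and 10, 31 under 1 CPM but above 0, and 3 were at 0. All Zfp genes together took 0.331%, 0.375% and 0.427% of the reads of replicates 1, 2 and 3, with 95% Wilson intervals of 0.326 to 0.336%, 0.374 to 0.377% and 0.425 to 0.429%. The shares differed between libraries by more than counting error, with replicate 1 lowest and replicate 3 highest.

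Each gene was set against 10 CPM with limma on log2(CPM + 1), fitted over all genes with at least 10 reads in total. Among the 256 Zfp genes that could be tested, the call (adjusted p under 0.05) was above 10 CPM for 80, below for 125 and neither for 51. Over all 11123 genes tested, 58.8% were above and 28.3% below. The share above was thus 31.3% for Zfp genes and the share below 48.8%. The 7 untested genes had fewer than 10 reads over the 3 libraries, so these counts do not cover all 263 genes.

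The highest Zfp gene by mean CPM was Zfp710 (ENSMUSG00000048897, chromosome 7, 80024814 to 80094173, plus strand), with 109, 125 and 144 CPM in replicates 1, 2 and 3. Its mean was 126 ± 17.8 CPM (SD, n = 3), a log2 difference of 3.52 from 10 CPM (SE 0.12, limma adjusted p = 1.50e-17). Zfp516, a partner of Prdm16 in brown fat, had 81.6, 138 and 129 CPM, so replicate 1 lay under both other libraries. Zfp207 (ENSMUSG00000017421, chromosome 11, 80383279 to 80405733, plus strand) encodes BuGZ, a microtubule-binding protein of the mitotic spindle. It had 126, 102 and 117 CPM and a mean of 115 ± 11.8 CPM, and unlike Zfp710 and Zfp516 it was highest in replicate 1. Zfp217 (ENSMUSG00000052056, chromosome 2, 170108643 to 170148103, minus strand) encodes a part of repressor complexes that is amplified in human breast cancers. It had 71.5, 112 and 141 CPM (log2 difference from 10 CPM 3.26, SE 0.15, limma adjusted p = 2.62e-15).

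The next 8 genes by mean CPM were all above 10 CPM too. Zfp652, a repressor that works with the Eto family, was at 97.1 ± 24.1 CPM, and Zfp740 was at 93.4 ± 13.5 CPM. Zfp106, an RNA-binding protein needed by motor neurons, was at 89.9 ± 27.3 CPM. Zfp91, a ubiquitin ligase of the non-canonical NF-kB pathway, was at 88.6 ± 15.5 CPM. Zfp276 (72.2 ± 7.98 CPM), Zfp608 (70.0 ± 8.84 CPM), Zfp592 (69.0 ± 5.13 CPM) and Zfp384 (68.0 ± 7.47 CPM, SD, n = 3) completed the 12 highest. None of these 12 genes had a KRAB match, and together they held 29.4 ± 0.911% of all Zfp reads. Exons of Zfp106 and Zfp652 overlap those of other annotated genes (26.1% of the exon length of Zfp106), and the strand setting of the counting is unknown here, so these values are uncertain.

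**Figure D1:**
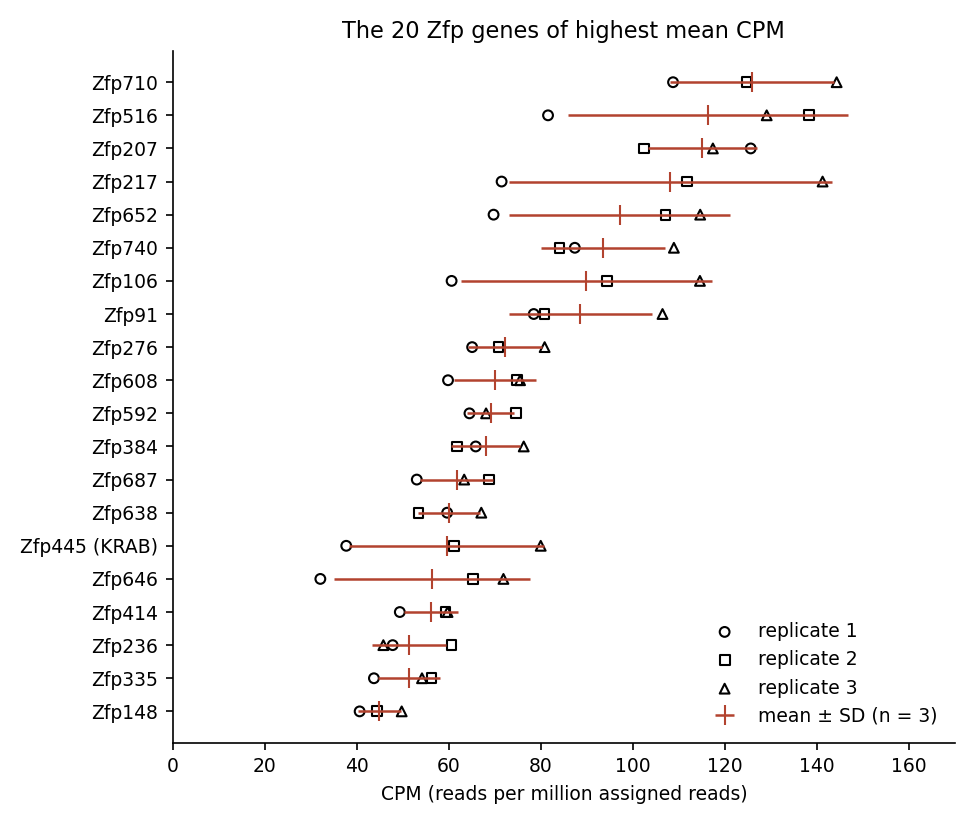
CPM of the 20 Zfp genes of highest mean, 1 row per gene, with open symbols for the 3 libraries and a red tick and bar for the mean ± SD (n = 3). Zfp710 leads at 126 CPM, and Zfp445 is the only KRAB gene among the 20.

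Per kb of exon the order changed, since levels of different genes can be compared only per length. On that scale Zfp414 was highest at 24.2 CPM per kb, from 49.3, 59.3 and 59.7 CPM over 2.32 kb of exon, though 30.4% of its exons overlap another gene. Zfp740 followed at 18.4 CPM per kb, Zfp710 at 18.2, Zfp217 at 17.6, Zfp207 at 17.3, Zfp830 at 16.3, Zfp516 at 14.1 and Zfp276 at 13.1. Zfp830, a short gene for a factor of RNA processing and DNA repair, was at only 25.9 ± 4.15 CPM before its length was taken into account. The median Zfp gene had 1.28 CPM per kb, against 4.36 over all listed genes and the median exon length was 4.87 kb against 4.43 kb.

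Genes with a KRAB match lay lower than genes without. The best match of each translated coding sequence to the A box fell into separate groups. There were 124 genes at 7 or fewer of 12 positions, 137 at 9 or more and none at 8. Genes without KRAB are here those without this match, and a missing match does not show that the domain is absent. Zfp974 matched at 4 positions, though its protein was 72.5% identical to that of the KRAB gene Zfp780b over the aligned part. KRAB genes had a median of 3.93 CPM and genes without KRAB of 14.4 CPM. In replicates 1, 2 and 3 the medians were 2.91, 3.49 and 4.23 CPM with KRAB and 14.6, 13.7 and 14.7 CPM without. The difference of medians was 1.99, 1.71 and 1.59 on the log2(CPM + 1) scale, positive in 3 of 3 libraries, and an exact two-sided permutation test that flips signs over libraries gave p = 0.25, which 3 libraries cannot go below. Per kb of exon the medians were 0.786 and 2.68 CPM per kb, so the ratio was 3.41 there and 3.67 on CPM.

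The calls against 10 CPM divided in the same way. Of 132 KRAB genes tested, 15 were above 10 CPM and 91 below, and of 122 genes without KRAB 65 were above and 32 below. These are 11.4% above and 68.9% below for KRAB genes, and 53.3% above and 26.2% below for the others, which is near the 58.8% and 28.3% of all genes tested. Only 4 of the 50 highest Zfp genes had a KRAB match, against 36 of the 50 lowest. Without replicate 2, with 1 library fewer in the fit, 6 KRAB genes were above 10 CPM in place of 15.

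**Figure D2:**
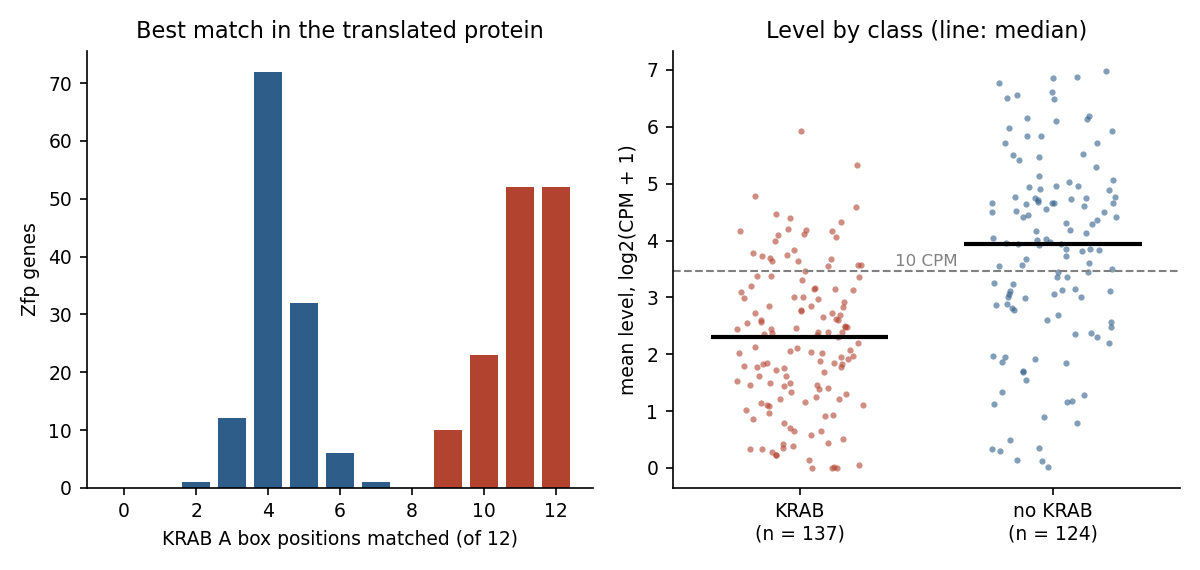
Left, number of Zfp genes by how many of 12 KRAB A box positions their translated protein matched (red: 9 or more, called KRAB). Right, mean log2(CPM + 1) of each gene by class, with the median as a black line and 10 CPM as a dashed line, where the KRAB median of 3.93 CPM lies under the line and the other median of 14.4 CPM above it.

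By mean CPM, Zfp445 was first among KRAB genes, while per kb of exon it (8.04 CPM per kb) and Zfp141 (8.07) were nearly equal. Zfp445 encodes a protein that protects imprinting control regions together with Zfp57, and lies on chromosome 9 (ENSMUSG00000047036, 122844529 to 122866006, minus strand). Its 37.7, 61.0 and 80.0 CPM gave a mean of 59.6 ± 21.2 CPM (log2 difference from 10 CPM 2.40, SE 0.17, limma adjusted p = 6.11e-12). The second was Zfp141 at 31.7, 37.3 and 48.9 CPM. Then came Zfp597 at 18.3, 21.3 and 39.7 CPM, of which 27.1% of the exons overlap another gene. All 3 genes were lowest in replicate 1 and highest in replicate 3. Zfp141 was chosen for mention after its values were seen.

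Median CPM followed no order by number of fingers, but per kb of exon the medians fell as the number rose. Counted as matches to a pattern of C, 2 to 4 residues, C, 12 residues, H, 3 to 5 residues and H, the median protein had 10 fingers, with 12 in the KRAB class and 7 in the other. Within the KRAB class the median level was 3.57 CPM for 45 genes with 6 to 10 fingers, 4.24 CPM for 56 genes with 11 to 15 and 3.00 CPM for 32 genes with 16 or more. Without KRAB the medians were 16.97 CPM for 53 genes with up to 5 fingers, 13.7 CPM for 38 genes with 6 to 10, 9.31 CPM for 17 genes with 11 to 15 and 21.03 CPM for 16 genes with 16 or more. The 4 KRAB genes with up to 5 fingers had a median of 16.5 CPM and are too few to describe as a class. Per kb of exon, in order of rising finger number, the KRAB medians were 3.66, 0.987, 0.851 and 0.539 CPM per kb. Those without KRAB were 3.44, 2.50, 2.34 and 2.02 CPM per kb. The cause of this order was not tested.

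All 15 listed genes of 18 on a list of chromatin and promoter factors were above 10 CPM, against 58.8% of all genes tested. This list, like the gene lists below, was chosen with earlier results of these data known, and the filter behind the listing is unknown. The share above therefore describes these 15 genes only. Their median was 38.2 CPM or 5.44 CPM per kb. They included Zfp217, Zfp592 and Zfp384 (the last a fusion partner in human B cell leukaemia) from the 12 highest. Zfp687, which works with Zfp592 in a chromatin complex, was at 61.7 ± 7.98 CPM. Zfp335, a chromatin regulator of brain and T cell development, was at 51.3 ± 6.71 CPM, and its exons overlap those of other genes over 28.3% of their length. Zfp148, which binds GC-rich promoters, was at 44.9 ± 4.59 CPM (SD, n = 3). The list and the KRAB classes overlap in content. Its members were picked as non-KRAB factors, and none of the 15 had a KRAB match. Of these, Zfp746 matched at 4 positions, though its protein was 36.7% identical to that of the KRAB gene Zfp777 over the aligned part. A missing match does not show that the domain is absent.

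Genes for RNA, ribosome, spindle and ubiquitin functions had 8 of 11 members above 10 CPM and 2 below (58.8% and 28.3% of all genes tested), with a median of 32.4 CPM or 6.21 CPM per kb. Besides Zfp207, Zfp106 and Zfp91, Zfp638 was above, at 59.6, 53.4 and 67.0 CPM. It encodes a protein that silences unintegrated retroviral DNA. Zfp622, a factor of large ribosomal subunit maturation, had 43.3, 44.5 and 45.1 CPM (44.3 ± 0.920 CPM), so its libraries lay close together. Zfp598, the ubiquitin ligase that marks collided ribosomes, was at 32.4 ± 5.06 CPM. Zfp326, of a complex that couples splicing to transcription, was below 10 CPM at 2.24 ± 1.17 CPM. Zfp593, a ribosome assembly factor, was also below at 2.23 ± 1.55 CPM, but 77.9% of its exons overlap another gene. Zfp326 and Zfp593 are named as the 2 members below and were picked after their values were seen.

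Of the 8 genes listed for silencing of imprints and retroelements, 6 were in the files, of which 3 were above 10 CPM and 2 below, so the share above was near the 58.8% of all genes tested. Zfp57 and Zfp708 were not analysed here. Zfp568, which silences a placental Igf2 transcript, had 14.2, 17.1 and 25.8 CPM (log2 difference from 10 CPM 0.82, SE 0.20, limma adjusted p = 0.000528). Zfp961 had 13.4, 16.7 and 14.6 CPM and was also above, and both calls were lost without replicate 2 (limma adjusted p = 0.0553 for Zfp568 and 0.187 for Zfp961). Zfp809, which represses murine leukaemia virus through its primer binding site, had 11.5, 10.5 and 10.8 CPM and could not be told from 10 CPM (limma adjusted p = 0.607). Zfp992 had 1.55, 1.12 and 0.718 CPM and Zfp932, which acts on endogenous retroviruses, had 0, 1.67 and 0.798 CPM. Both lay below 10 CPM, and 43.0% of the 50-base transcript windows of Zfp992 and 37.0% of those of Zfp932 also occur in another gene.

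Of 10 genes of lineage and development, 5 were in the files, with 2 above 10 CPM and 3 below, too few to set against the 58.8% above and 28.3% below of all genes tested. Zfp516 was above, as was Zfp703, a developmental cofactor, at 26.2, 28.9 and 35.6 CPM. Zfp467, a regulator of the choice between bone and fat cells, was below at 5.42 ± 1.52 CPM, a call lost without replicate 2 or without replicate 3 (limma adjusted p = 0.0543 and 0.0701). Zfp296, a gene of pluripotent cells, had 2.72, 6.03 and 1.94 CPM and was below. Zfp503, close kin of Zfp703, was below, at 0, 57 and 30 reads. Zfp42, Zfp423, Zfp521, Zfp536 and Zfp750 were not analysed here.

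Of 26 genes of the KRAB repression pathway 21 were above 10 CPM and 1 below, with a median of 57.5 CPM, where 58.8% of all genes tested were above and 28.3% below and the median of all listed genes was 19.7 CPM. Trim28, the corepressor that KRAB domains bind, had 143, 107 and 120 CPM (log2 difference from 10 CPM 3.49, SE 0.12, limma adjusted p = 1.90e-17). Setdb1, which writes the repressive histone mark, was at 34.5 ± 5.02 CPM, and its partner Atf7ip at 124 ± 20.4 CPM. The heterochromatin proteins Cbx5, Cbx1 and Cbx3 were at 71.5 ± 13.6, 33.3 ± 2.09 and 16.3 ± 2.37 CPM. Chd4, a remodeller of the NuRD complex, was highest at 359 ± 52.4 CPM, and Dnmt1, the maintenance DNA methyltransferase, was at 273 ± 41.4 CPM (SD, n = 3). Sumo2 was the gene below, at 4.27, 2.32 and 7.47 CPM, and no pathway gene was below without replicate 2. Many processed copies of Sumo2 lie in the mouse genome, so its count is uncertain.

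Zfp genes lay in clusters. On GRCm38, 110 of the 263 genes stood in runs of 5 or more neighbours with gaps of at most 500 kb, and 82 of those had a KRAB match. The largest run was on chromosome 17 (21008903 to 23564238) with 20 genes, of which 19 had KRAB. None of the 20 was above 10 CPM, 11 were below, and the levels ran from 0 to 12.7 CPM (median 3.23 CPM). A run of 19 KRAB genes on chromosome 13 (67038596 to 67827002) also had none above 10 CPM and 12 below, with a median of 3.06 CPM. Over all KRAB genes tested, 11.4% were above and 68.9% below, and over all genes tested 58.8% and 28.3%. Low calls were thus frequent among KRAB genes in general. A run of 10 genes on chromosome 7 (127233061 to 127885996), 4 of them with KRAB, had 3 above 10 CPM and 4 below and a median of 9.79 CPM, with Zfp646 highest at 56.3 CPM.

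KRAB genes had similar medians inside and outside the runs. Those inside runs of 5 or more had a median of 4.03 CPM and those outside of 3.37 CPM, or 0.766 and 0.786 CPM per kb. Over all Zfp genes, the 104 that stood alone had a median of 12.7 CPM and the 110 in runs of 4.24 CPM, and 25 of the former and 82 of the latter had KRAB. The listing also differed by class. Of 391 protein-coding Zfp genes in GENCODE M21, 261 were listed, namely 59.8% of the 229 with KRAB and 76.5% of the 162 without.

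Sequence shared with other genes makes some levels uncertain. In 31 of the 263 genes at least 20% of the 50-base transcript windows also occur in another gene, on either strand, and in 67 genes no window does. Windows count as shared both between similar genes and where exons of 2 genes overlap in the genome. In Zfp784, 94.8% of the exon length overlaps another gene and 94.7% of the windows are shared. In Zfp90 the values are 79.5% and 77.1%. Of the 263 genes, 15 have at least 20% of their exon length in such overlap. The 31 genes had a median of 2.80 CPM and the other 232 of 7.31 CPM, and within the KRAB class the medians were 2.57 and 4.24 CPM. Among KRAB genes with under 20% shared windows, 13 of 111 tested were above 10 CPM and 74 below. At least 90% protein identity to another listed gene was found in 12 genes, among them Zfp991 and Zfp992, Zfp455 and Zfp456, and Zfp874a and Zfp874b. Of these 12, Zfp984 was above 10 CPM, 10 were below and Zfp947, at 0 reads, was not tested. How reads that match several genes were counted is not given in the sources used here.

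At the low end, 34 of the 263 Zfp genes (12.9%) had 0 reads in at least 1 library, against 7.49% of all listed genes. The lack of reads fell on low genes, with none among the 102 genes averaging 10 CPM or more. Between 1 and 10 CPM, 4 of 127 Zfp genes (3.15%) had a library at 0, close to the 3.59% of all listed genes at that level. Under 1 CPM it was 27 of 31 (87.1%), against 75.1% of all listed genes. By class it was 18.2% of KRAB genes and 7.26% of the others.

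Zfp genes without reads were fewer the deeper the library, though replicates 2 and 3, of similar depth, differed. In replicate 1, the shallowest, 26 Zfp genes had 0 reads (9.89%, against 4.71% of all listed genes). In replicate 2, the deepest, 5 had none (1.90% against 2.58%). In replicate 3, nearly as deep as replicate 2, 20 Zfp genes had 0 reads there (7.60% against 5.06%). Of the 34 genes, 12 lacked reads in replicate 1 alone (4.56% of Zfp genes, against 1.82% of all listed genes). A further 8 lacked them in replicate 3 alone (3.04% against 1.89%) and 9 in both of these (3.42% against 1.19%). The rest were 2 in replicates 1 and 2 (0.760% against 0.298%) and 3 in all libraries (1.14% against 1.40%). None lacked reads in replicate 2 alone, where 35 of all listed genes did.

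**Figure D3:**
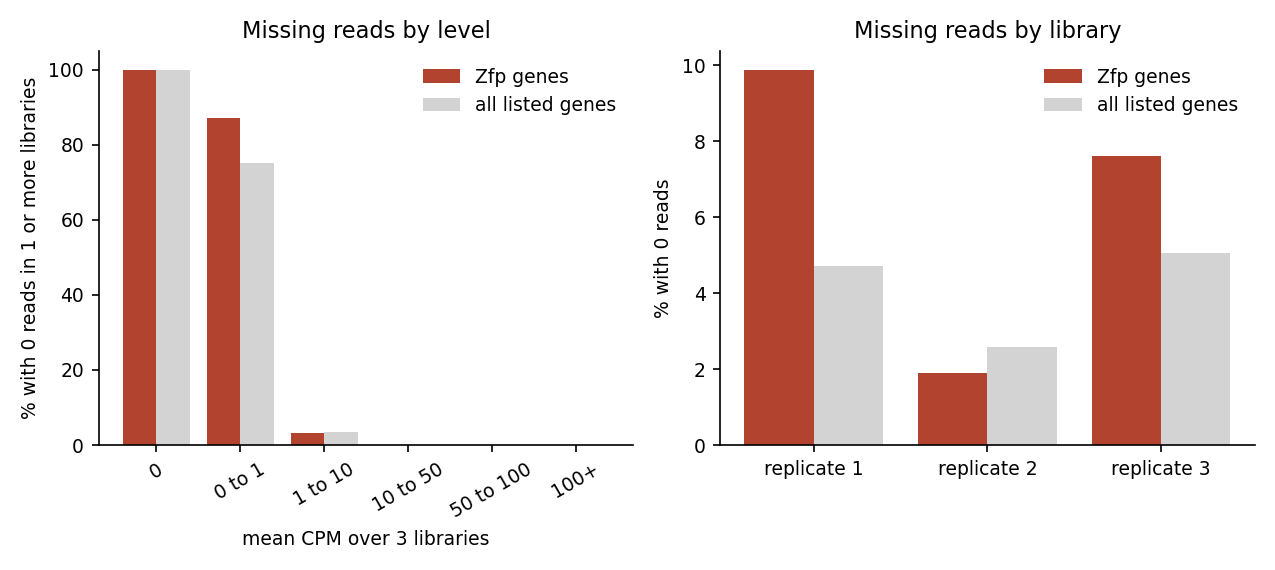
Left, percent of genes with 0 reads in 1 or more libraries by mean CPM, for Zfp genes (red) and all listed genes (grey), from 100% at a mean of 0 to 0% at 10 CPM and more. Right, percent with 0 reads in each library, where replicate 3 is at 7.60% for Zfp genes although its depth is close to that of replicate 2 (1.90%).

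A zero was counted as a possible gap only where the CPM of both other libraries exceeded what 0 reads allow. Counting error of those other libraries was left out of this comparison. In replicate 1, 6 of the 26 genes (23.1%) had both other libraries above the 0.583 CPM that 0 reads allow there, against 95 of 538 (17.7%) among all listed genes without reads. As a share of all genes with or without reads this was 2.28% of Zfp genes and 0.832% of listed genes. The 6 were Zfp503, Zfp563, Zfp619, Zfp770, Zfp85 and Zfp932. For Zfp503 and Zfp932 the 95% Wilson interval in replicate 3 began at 0.559 CPM, under that limit, so their gap is not shown to exceed counting error. In replicate 3, 8 of the 20 (40.0%) had both others above 0.0798 CPM, against 205 of 578 (35.5%) among all listed genes without reads, or 3.04% of Zfp genes and 1.8% of listed genes. The 8 were Zfp3, Zfp446, Zfp455, Zfp607a, Zfp647, Zfp658, Zfp661 and Zfp775. In replicate 1, Zfp647 and Zfp661 had 1 read, Zfp446 had 2, and Zfp3 and Zfp775 had 3. The Wilson interval of Zfp647 there began at 0.0343 CPM, under 0.0798 CPM, so gaps that rest on so few reads are uncertain. In replicate 2 none of 5 did, against 33 of 295 (11.2%) among all listed genes without reads, or 0.289% of listed genes.

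The gene of highest level among these was Zfp619 (ENSMUSG00000068959, chromosome 7, 39517766 to 39540420, plus strand), a KRAB gene with 33 fingers. It had 0, 157 and 212 reads, or 0, 3.91 and 5.64 CPM, and the mean of the other libraries comes to 24.6 reads at the depth of replicate 1. Its call below 10 CPM (limma adjusted p = 0.000246) was lost in DESeq2 on recovered reads (adjusted p = 0.328) and when no genes were filtered (limma adjusted p = 0.0587). Zfp770 had 0, 80 and 64 reads, Zfp563 had 0, 33 and 72, and Zfp788 had 0, 84 and 20. In Zfp85, with 0, 50 and 69 reads, 31.9% of the windows occur in another gene.

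In replicate 3, Zfp607a had 10, 62 and 0 reads and Zfp658 had 12, 21 and 0. Their CPM in the other libraries, 1.94 and 1.54 for Zfp607a and 2.33 and 0.523 for Zfp658, come to 65.5 and 53.6 reads at the depth of replicate 3. Both genes thus had reads in the shallowest library and none in a deeper one. The opposite case, reads in replicate 3 alone, was seen in Zfp995 (38 reads) and Zfp931 (30 reads), both chosen after their values were seen. Zfp229, Zfp287 and Zfp947 had no read in any library.

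**Figure D4:**
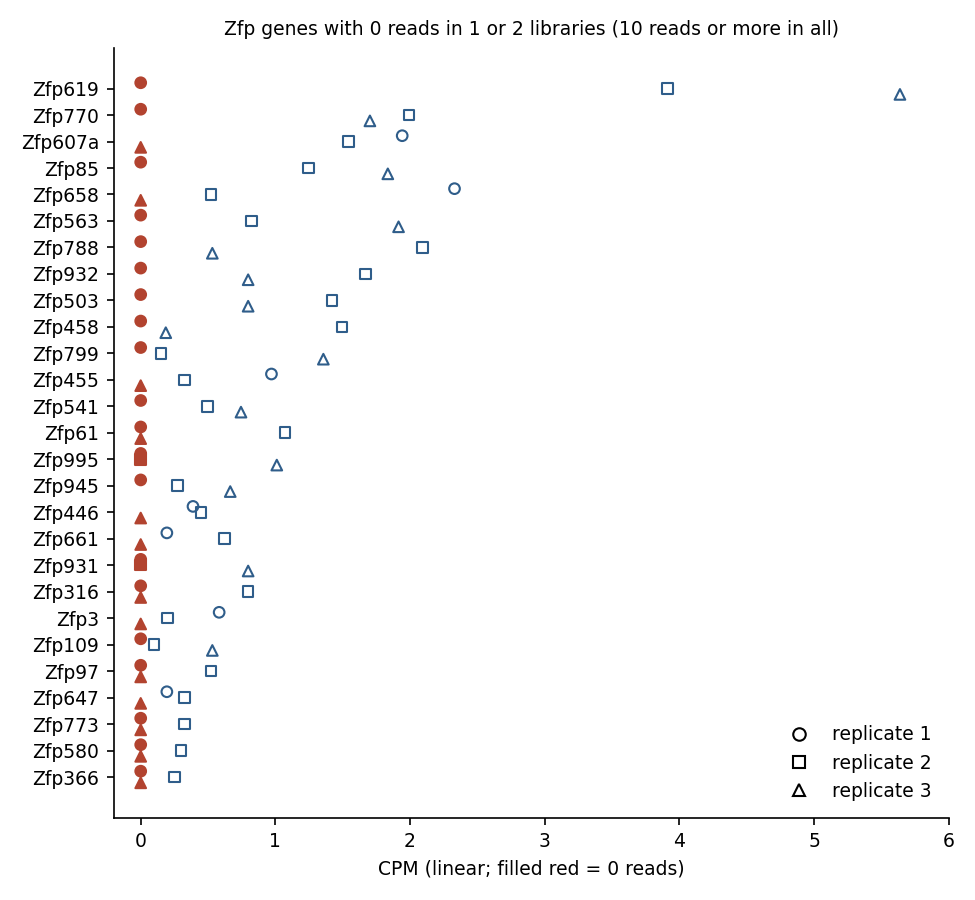
CPM in each library of the 27 Zfp genes that had 0 reads in 1 or 2 libraries and at least 10 reads in all, 1 row per gene, with filled red symbols at 0 reads. Zfp619 reaches 5.64 CPM in replicate 3 with no read in replicate 1, and Zfp607a and Zfp658 are at 0 in replicate 3 only.

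The lowest genes still called below 10 CPM had hardly any reads. They were Zfp366, which is known from dendritic cells, with 10 reads in replicate 2 alone, Zfp580 with 12 and Zfp773 with 13 in the same library alone, Zfp647 with 1, 13 and 0 reads, and Zfp97 with 0, 21 and 0. In 81.3% of the windows of Zfp97 the sequence occurs in another gene. In edgeR on recovered reads the calls of Zfp366, Zfp580, Zfp773 and Zfp647 were lost (adjusted p from 0.0583 to 0.0655), as was that of Zfp658 (adjusted p = 0.0623). Of the genes not called, those nearest to 10 CPM by the fitted log2 difference were Zfp398 (10.04 ± 0.980 CPM) and Zfp771 (10.3 ± 2.63) on the upper side and Zfp84 (9.43 ± 0.618) and Zfp41 (9.89 ± 4.01) on the lower side.

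Between libraries, Zfp genes were lower in replicate 1 than in the others. The median log2 difference of replicate 1 from the mean of replicates 2 and 3 was -0.22 over Zfp genes and -0.075 over all listed genes, and 68.1% of Zfp genes were lower there against 56.4% of all. Both classes shared it, with -0.24 for KRAB genes and -0.21 for the others. Replicate 3 exceeded replicate 2 by a median of 0.18 over Zfp genes and 0.10 over all listed genes. These differences use CPM as deposited, without further scaling, so their size depends on the scaling of the libraries. The factors of TMM, a scaling for library composition, were 0.968, 0.971 and 1.063 for replicates 1, 2 and 3. The libraries correlated over Zfp genes with Pearson's r of 0.94 (replicates 1 and 2), 0.92 (1 and 3) and 0.95 (2 and 3), a description over genes of log2(CPM + 1) in 3 shared libraries. Over all listed genes the values were 0.97, 0.96 and 0.98.

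The median coefficient of variation over the 3 libraries was 20.2% for the 4 Zfp genes of 100 CPM and more, 13.1% between 50 and 100 CPM, 18.9% between 10 and 50 and 40.6% between 1 and 10. Over all listed genes it was 12.2%, 14.2%, 18.2% and 38.4% at these levels.

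Among Zfp genes averaging 10 CPM or more, the widest range was that of Zfp526 (ENSMUSG00000046541, chromosome 7, 25221425 to 25227507, plus strand). It had 2.91 CPM in replicate 1, from 15 reads, against 15.02 and 14.7 CPM in replicates 2 and 3. The 95% Wilson interval in replicate 1 was 1.77 to 4.81 CPM and in replicates 2 and 3 the intervals began at 13.9 and 13.6 CPM, so the gap exceeded counting error. It was not called against 10 CPM (log2 difference -0.14, limma adjusted p = 0.656), and without replicate 1 it was above (log2 0.53, limma adjusted p = 0.0215).

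The next 5 genes by range had 1 library or more apart from the rest by more than counting error. Zfp292, a large multi-finger protein, had 11.7, 29.3 and 31.6 CPM, and Zfp871, a KRAB gene, had 5.63, 12.95 and 15.8 CPM. Zfp646 had 32.0, 65.2 and 71.9 CPM. In these 3 genes the Wilson interval of replicate 1 ended under those of replicates 2 and 3. Zfp597 instead stood out in replicate 3, and the 3 intervals of Zfp445 did not overlap one another (values above). Separate intervals were not particular to these genes, as those of Zfp710, Zfp217 and Zfp106 did not overlap either, while those of Zfp622 did. The call of Zfp292 above 10 CPM was lost without replicate 2 (limma adjusted p = 0.106). Marker sums also differed in replicate 1, with the 3 erythroid markers at 681 CPM against 378 and 343, the 3 eosinophil markers at 480 CPM against 767 and 1163, and the basophil markers as given above. The part of depth or of these cells in the gaps was not tested.

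**Figure D5:**
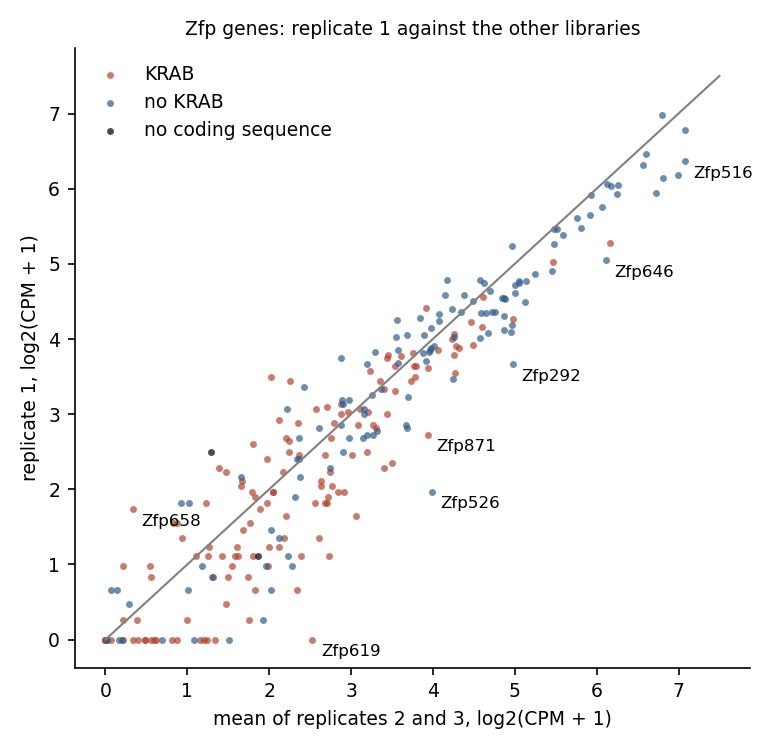
log2(CPM + 1) of 263 Zfp genes in replicate 1 against the mean of replicates 2 and 3, coloured by class, with the line of equal values. More points lie under the line (68.1%) than over it, Zfp526 falls furthest among genes above 10 CPM, and Zfp619 lies at 0 in replicate 1.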

How the data were processed

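Messenger RNA of the sorted cells was sequenced in 3 libraries. The submitters' processing notes name FastQC, STAR, featureCounts and edgeR and the builds mm10 and GRCh38, without versions or roles, and neither the strand setting nor the filter behind the gene list is given in the sources used here. The authors deposited CPM per gene, of 11463 entries and 11419 genes. All values were whole multiples of 1 read (100%, tolerance 0.01), so reads were recovered. Each gene with at least 10 reads was tested two-sided against 10 CPM with limma 3.58.1 in R 4.3.3 (intercept of log2(CPM + 1), empirical Bayes with trend, Benjamini-Hochberg over 11123 genes, threshold 0.05). edgeR 4.0.16 and DESeq2 1.42.0 on recovered reads were alternatives, with other pseudocounts, filters, scalings, levels and left-out libraries. The steps were tested on simulated data.

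The planned RefSeq protein table was not used here. Classes came from the longest GENCODE M21 coding sequence on GRCm38, with KRAB called at 9 or more of 12 A box positions. Exon overlap, shared 50-base windows and protein identity (blastp 2.17.0, at least 80% of the query aligned) used the same annotation. Named genes were the 12 highest by CPM and the 8 highest per kb, the 5 lowest called below 10 CPM, those at 0 everywhere, the 8 with a zero and the highest CPM in another library, the 6 of widest range among those averaging 10 CPM or more, the 2 uncalled genes nearest to 10 CPM on each side, and up to 6 of each role list, with a few others marked where named. Members, lists and tests were chosen with earlier results of these data known. Wilson intervals and the limits for 0 reads cover counting error only.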

Additional observations from a re-analysis of the deposited data

How the results depend on the processing

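No paired analysis was possible because all libraries belong to 1 group. Against 20 CPM in place of 10, 34 Zfp genes were above, of which 2 had KRAB and 32 did not, 61 without KRAB were below, and 5 pathway genes were below. Against 5 CPM, 78 Zfp genes were below, 56 with KRAB and 20 without, 33 KRAB genes were above, and 0 pathway genes were below. Leaving out 1 library in turn gave 60 to 81 Zfp genes above and 97 to 123 below, 6 to 16 KRAB genes above, 0 to 2 pathway genes below, and medians of 3.21 to 3.98 CPM with KRAB and 13.7 to 14.997 CPM without. Per kb the Zfp median was 1.28. Zeros with both other libraries over the limit numbered 6, 0 and 8. edgeR called 83 Zfp genes above and 114 below, DESeq2 80 and 118.

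The log2 difference changed sign in these genes. Against 20 CPM it was -0.86 for Zfp871, -0.93 for Zfp398, -0.92 for Zfp771, -0.11 for Zfp568, -0.41 for Zfp961 and -0.82 for Zfp809. Against 5 CPM it was 0.73 for Zfp526, 0.80 for Zfp84, 0.79 for Zfp41 and 0.068 for Zfp467. Leaving out 1 library in turn gave -0.49 to 0.53 for Zfp526, -0.19 to 0.48 for Zfp871, -0.049 to 0.075 for Zfp398, -0.17 to 0.15 for Zfp771 and -0.35 to 0.18 for Zfp41. edgeR gave 0.18 for Zfp526 and 0.013 for Zfp41, and DESeq2 gave 0.12 for Zfp526, and the cause was not tested. TMM and DESeq2 scaling, pseudocount 0.1 and moderation without trend changed no call among 51 named genes.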
